A study of Homo sapiens with 18 samples.

Results

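The data describe 77 genes of the nuclear genome that encode structural subunits of the mitochondrial respiratory chain and ATP synthase, in the human breast epithelial line MCF10A-ErSrc. They were taken by symbol among 23604 genes listed in at least 1 RNA-Seq library (protein-coding genes of the NDUFA, NDUFB, NDUFC, NDUFS, NDUFV, SDH, UQCR, COX and ATP5 families, with CYC1), and the rule used no measured value. Complex I contributed 36 genes, complex II 4, complex III 9, complex IV 10 and complex V 18, and all 77 were listed in all 8 libraries and tested.

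MCF10A-ErSrc carries a v-Src oncoprotein fused to the oestrogen receptor, so that tamoxifen switches it on and transforms the cells. Non-treated cells (NT) and tamoxifen-treated, transformed cells (TAM) each received DMSO or TPL (labelled TPL-125nM) during 4 h. TPL is triptolide, a compound that binds the XPB subunit of TFIIH, the factor that opens promoters for RNA polymerase II (RNAPII). All groups therefore share 1 line and its transgene, and the TAM groups differ from the NT groups in tamoxifen as well as in transformation. Each of the 4 groups (NT, NT + TPL, TAM, TAM + TPL) had 2 RNA-Seq libraries, and for RNAPII ChIP-Seq, with 8 samples and 2 inputs, there is 1 peak list a condition.

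Complex I passes electrons from NADH to ubiquinone and complex II passes them from succinate. Complex III hands them to cytochrome c and complex IV to oxygen, while complex V uses the resulting proton gradient to make ATP. Except for complex II, each complex also holds subunits made from mitochondrial DNA, which were not analysed here. The nuclear genes are expressed in nearly all tissues, their mRNAs are mostly short and long-lived, and many of their promoters carry sites for NRF1, for ETS-family factors such as GABP, or for YY1.

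The libraries held 7461309 to 8349448 expected counts. The subunits were well covered: apart from ATP5MGL, a paralogue of the complex V subunit ATP5MG, with 7.75 counts in its lowest library, every member had at least 63.0 counts in every library. Basal epithelial keratins were abundant in all libraries, with KRT5 at 6249.55 and 5776.13 FPKM (fragments per kilobase of transcript and per fixed number of mapped reads) in NT cells. The 9 epithelial markers summed to 17207.32 to 19111.34 FPKM in NT cells and to 10949.83 to 13835.38 after TPL; TAM cells had 7758.15 to 8134.42, and 4080.17 to 4440.13 after TPL. The 9 markers of other cell types summed to 61.04 to 62.22, 102.17 to 120.87, 295.29 to 312.51 and 430.53 to 495.41 FPKM in the same order, mostly from CD68, and VWF and CD3E were at or near 0. The part of these shifts in the results that follow was not tested.

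The 5 promoter stretches shown here belong to members whose RNA values stand at the edges of the set or differ between the cell states: SDHA had the lowest log2 fold change with TPL in both states, SDHD rose in NT cells beside it in the same complex, COX8A was higher with TPL in both states, ATP5F1C was lower with TPL in TAM cells, and UQCRC1 was lower in TAM cells. Each run is the 200 bases just before the RefSeq start on GRCh38.p14, written 5′ to 3′ on the gene's strand, and capitals mark the NRF1 consensus or ETS letters (ACTTCCGG) on either strand. SDHA lies on the plus strand at chr5:218120-218319, SDHD on the plus strand at chr11:112086673-112086872, COX8A on the plus strand at chr11:63974420-63974619, ATP5F1C on the plus strand at chr10:7787977-7788176 and UQCRC1 on the minus strand at chr3:48609647-48609846.
SDHA: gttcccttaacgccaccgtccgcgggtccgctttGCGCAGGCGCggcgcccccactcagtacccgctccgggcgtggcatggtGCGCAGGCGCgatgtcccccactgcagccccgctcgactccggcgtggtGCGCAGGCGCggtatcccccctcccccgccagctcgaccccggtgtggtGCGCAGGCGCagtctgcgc
SDHD: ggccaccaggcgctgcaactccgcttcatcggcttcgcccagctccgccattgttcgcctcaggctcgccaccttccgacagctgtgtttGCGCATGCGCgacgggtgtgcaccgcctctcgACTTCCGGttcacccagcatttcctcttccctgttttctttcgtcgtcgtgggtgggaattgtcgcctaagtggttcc
COX8A: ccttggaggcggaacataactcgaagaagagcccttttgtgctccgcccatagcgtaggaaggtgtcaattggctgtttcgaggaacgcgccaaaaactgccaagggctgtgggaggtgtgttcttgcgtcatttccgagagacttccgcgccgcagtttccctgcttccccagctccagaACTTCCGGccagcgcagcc
ATP5F1C: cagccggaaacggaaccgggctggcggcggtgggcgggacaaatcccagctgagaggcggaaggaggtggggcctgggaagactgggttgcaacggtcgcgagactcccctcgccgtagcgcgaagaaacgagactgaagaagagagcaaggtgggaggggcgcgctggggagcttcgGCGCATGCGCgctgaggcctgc
UQCRC1: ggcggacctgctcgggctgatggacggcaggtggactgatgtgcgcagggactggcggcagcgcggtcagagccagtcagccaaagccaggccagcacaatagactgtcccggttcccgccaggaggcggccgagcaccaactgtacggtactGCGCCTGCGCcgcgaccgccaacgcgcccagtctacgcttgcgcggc

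The SDHA stretch held 4 copies of the NRF1 consensus, first bases at -166, -117, -68 and -19 counted from the start. SDHD had 1 NRF1 match at -110 and 1 ETS match at -78. The COX8A match was to the ETS letters at -19, and the ATP5F1C and UQCRC1 matches were to the NRF1 consensus at -22 and -47. RefSeq promoters (250 bases before to 50 after the start) were found for 63 of the 77 members. The NRF1 consensus stood in 16 of the 63 (25.4%) and in 8.58% of all 15843 protein-coding promoters, the ETS letters in 10 (15.9%) and 6.19%, and the YY1 letters (AAGATGGC) in 11 (17.5%) and 3.91%. At least 1 of the 3 was found in 31 member promoters (49.2%) and in 16.9% of all promoters. The Sp1 letters (GGGCGG) and the TATA letters (TATAAA) stood at shares near those of all promoters, with 61.9% against 58.5% and 9.52% against 9.63%. Both strands were searched, the first 3 motifs do not contain each other, and a match describes letters only.

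In NT cells, TPL was followed by higher levels of many subunits of complexes I, III, IV and V and of 1 of the 4 complex II subunits. A total of 36 of 77 members rose and 0 fell at an adjusted p of at most 0.05 (edgeR quasi-likelihood test, Benjamini-Hochberg adjustment over 16948 genes), where 17.2% of all genes tested rose and 19.8% fell. The members' median log2 fold change was 0.60 (a 1.51-fold rise), and that of all genes was 0.09. In these bulk libraries a change in the share of cells of a type and a change in RNA per cell cannot be told apart. Scaled counts and FPKM are relative to the other RNA of a library. A rise or fall in this report is therefore one of relative level, and a change in the amount of RNA was not tested. The summed FPKM of the 77 genes was 1.297% and 1.195% of all FPKM in the NT libraries and 1.531% and 1.657% in the NT + TPL libraries. By a size-limited rule (a log2 fold change beyond 1.2 either way, with an adjusted p no higher than 0.001) edgeR called 0 members, beside 1.22% of all genes higher and 2.71% lower, while 47 members were higher and 1 lower at an unadjusted p under 0.05 (23.7% and 24.1% of all genes). Both NT + TPL libraries lay above both NT libraries for 62 members and below them for 2, where 36.4% and 32.7% of all genes did so. DESeq2 called 1 by that rule, NDUFA2.

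**Figure D1:**
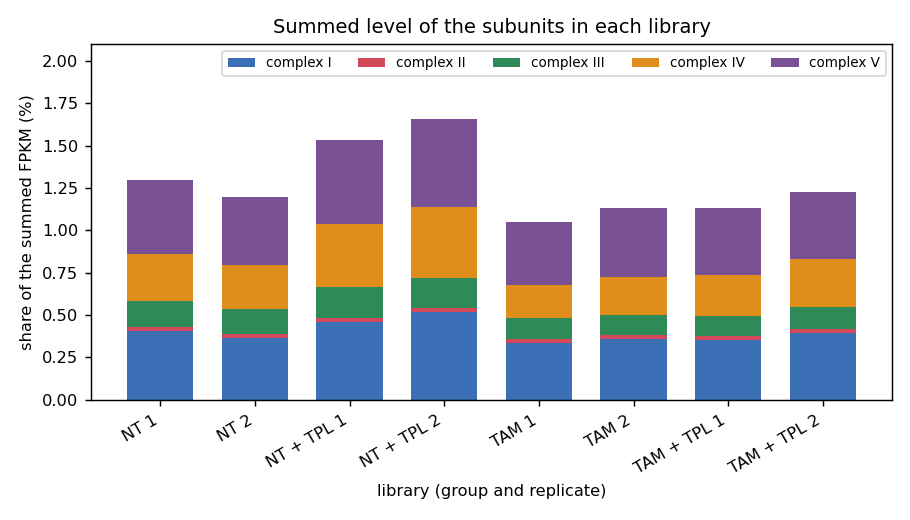
Share of the summed FPKM (%, vertical axis) taken by the 77 subunits in each of the 8 libraries (horizontal axis), stacked by complex. Both NT + TPL libraries, at 1.531% and 1.657%, stand above the other 6, which lie between 1.052% and 1.297%.

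The counts rested on pairs of libraries that differed from each other. Fewer members rose without NT replicate 1, NT replicate 2 or NT + TPL replicate 2, and more rose without NT + TPL replicate 1. Fewer also rose without any 1 TAM or TAM + TPL library, which is not in either group compared. Each of these fits left 1 library in a group, which limits what it can call. The members' median stayed between 0.40 and 0.78 in all 8 of these fits. Over all genes the median was 0.11 without either NT library, and 0.04 and 0.03 without NT + TPL replicate 1 and 2.

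Gene length moved with these values. The members are short, with a median effective length of 824 bases against 2871 for all genes tested. In NT cells the median log2 fold change with TPL was 0.63 over the 1197 genes under 1000 bases and 0.65 over the 49 members of that class. It was 0.32 and 0.59 (17 members) between 1000 and 2000 bases, and -0.02 and 0.44 (11 members) at 2000 bases or more. The shares of all genes that rose in these 3 classes were 27.5%, 20.9% and 15.1%. With a length correction in the fit, 8 members rose and 3 fell (median 0.11), where 16.6% of all genes rose and 20.7% fell (median 0.06). Among the members that rose were NDUFA10, NDUFC2, NDUFV1, UQCRB, UQCRQ, ATP5F1B and ATP5MC2, and the 3 that fell were NDUFA12, UQCRFS1 and ATP5F1C. Replicates of 1 group also differed by length: the Spearman rho of the replicate 1 minus replicate 2 difference with length was -0.301 in NT and 0.234 in NT + TPL over all genes tested.

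**Figure D2:**
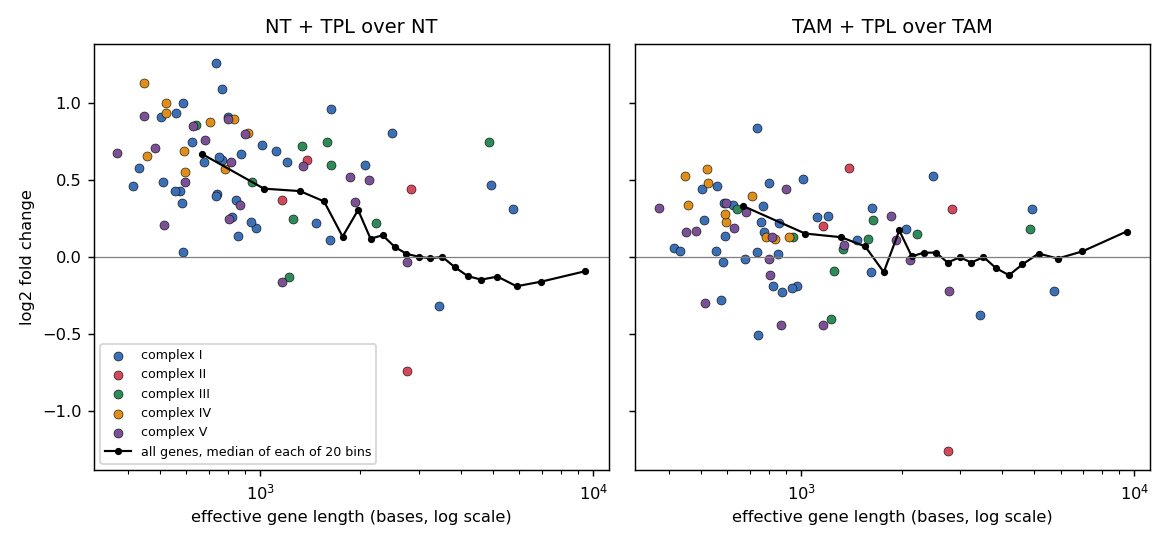
Log2 fold change with TPL (vertical axis) against effective gene length in bases (horizontal log axis) for the 77 subunits, coloured by complex, in NT cells (left) and TAM cells (right). The black line joins the medians of 20 equal bins of all 16948 genes; in NT cells it starts above 0.5 for the shortest genes, where most subunits lie.

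Complex IV had the highest share of risen members in NT cells. The complex is the oxidase that reduces oxygen, and its nuclear subunits surround the catalytic core that mitochondrial DNA encodes. A total of 8 of 10 rose, the median was 0.85, and all 10 were higher in both NT + TPL libraries than in either NT library, beside the 36.4% of all genes. With the length correction 0 of the 10 rose or fell (median 0.24), and COX8A, COX7C and COX6B1 had 0.28, 0.34 and 0.02. COX8A, one of the smallest subunits, was at 135.65 and 137.87 FPKM in NT and 263.41 and 283.86 in NT + TPL. Its 2 pairs of values did not overlap, and the log2 fold change was 1.0 (SE 0.162, adjusted p = 0.00433). COX7C went from 147.95 and 120.55 to 206.82 and 377.54 FPKM, with the second NT + TPL library well above the first (log2 fold change 1.13, SE 0.32, adjusted p = 0.0314). COX6B1, the most abundant complex IV member, which helps to join the dimer, went from 324.62 and 263.49 to 420.39 and 530.68 FPKM (0.69, SE 0.19, adjusted p = 0.0282).

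Complex I rose in 14 of 36 members with a median of 0.53. With the length correction 4 of the 36 rose and 1 fell (median 0.02), beside 16.6% and 20.7% of all genes. NDUFA7, NDUFA2, NDUFB8, NDUFA13 and NDUFS7 did not pass in that fit. NDUFA7, an accessory subunit, gave the smallest adjusted p of all members: 76.17 and 68.67 FPKM in NT against 146.1 and 144.29 in NT + TPL, a 2.0-fold rise (log2 fold change 1.0, SE 0.145, adjusted p = 0.00285). NDUFA2 had the largest estimate, from 35.78 and 27.78 to 54.74 and 95.11 FPKM, in which the NT + TPL libraries lay far apart (1.26, SE 0.315, adjusted p = 0.0209). NDUFB8 was next among complex I members, at 27.81 and 16.98 against 38.77 and 56.9 FPKM (1.09, SE 0.294, adjusted p = 0.027). NDUFA13, the most abundant complex I member, had 147.17 and 123.93 against 197.88 and 319.43 FPKM (0.94, SE 0.255, adjusted p = 0.0278).

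The core subunits of complex I include those that hold the flavin and the iron-sulfur clusters through which electrons travel. NDUFV1, which binds NADH and the flavin, rose (56.54 and 38.86 to 78.01 and 106.42 FPKM, log2 fold change 0.96, adjusted p = 0.0192). NDUFS7, at the end of the cluster chain, rose as well (96.69 and 66.05 to 144.5 and 163.12 FPKM, 0.91, adjusted p = 0.0155). NDUFS8, NDUFV2 and NDUFS3 did not pass the test, with log2 fold changes of 0.26, 0.23 and 0.19, and NDUFS1, the largest core subunit, had -0.32 (9.25 and 10.22 against 9.41 and 6.42 FPKM, adjusted p = 0.281), the only negative value in complex I. NDUFA12 (68.96 and 62.85 against 63.82 and 71.65 FPKM, log2 fold change 0.03) and NDUFA8 (0.14) were close to 0, and NDUFA5, the complex I member with the lowest level, lay between 2.69 and 5.07 FPKM in all libraries.

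Complex III rose in 6 of 9 members (median 0.60). With the length correction 2 of the 9 rose and 1 fell (median 0.21), beside 16.6% and 20.7% of all genes. UQCRH and UQCRC1 did not pass in that fit. UQCRH, the hinge protein and most abundant member, went from 159.54 and 142.17 to 235.29 and 310.72 FPKM (log2 fold change 0.86, SE 0.2, adjusted p = 0.0164). UQCRC1, a core protein, went from 133.11 and 106.22 to 179.49 and 184.4 FPKM (0.60, SE 0.157, adjusted p = 0.0245), and UQCRB, the least abundant member, had 0.75 (adjusted p = 0.033). The 2 nuclear-encoded redox carriers did not pass the test: cytochrome c1 (CYC1) had 168.12 and 156.13 against 206.19 and 180.57 FPKM (0.25, adjusted p = 0.184), and the Rieske iron-sulfur protein UQCRFS1 had 142.42 and 112.17 against 116.46 and 116.98 FPKM (-0.13, adjusted p = 0.524).

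Complex V rose in 7 of 18 members (median 0.56). With the length correction 2 of the 18 rose and 1 fell (median 0.12), beside 16.6% and 20.7% of all genes. ATP5MC2, a source of the ring subunit c that turns in the membrane, went from 228.85 and 207.29 to 346.5 and 413.93 FPKM (log2 fold change 0.80, SE 0.153, adjusted p = 0.00807). The catalytic subunit beta, ATP5F1B, was the most abundant member of complex V and went from 336.59 and 286.72 to 444.29 and 451.7 FPKM (0.52, SE 0.138, adjusted p = 0.0257). ATP5F1C, the central stalk subunit gamma, had 193.98 and 179.28 against 178.01 and 158.93 FPKM (-0.16, adjusted p = 0.387). ATP5MGL was at 1.23 to 4.67 FPKM in all libraries.

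Complex II is the enzyme shared with the citrate cycle, and its 4 subunits had both the lowest value of all members and a rise. SDHD, a membrane anchor, went from 22.32 and 21.39 to 30.1 and 36.03 FPKM (log2 fold change 0.63, SE 0.202, adjusted p = 0.0473). SDHB, the iron-sulfur subunit, and SDHC, the other anchor, had 0.37 and 0.44 without passing the test (adjusted p = 0.0869 and 0.0924). SDHA, the flavoprotein that oxidises succinate, was at 17.95 and 19.12 FPKM in NT and 14.23 and 8.3 in NT + TPL. Both NT + TPL libraries lay below both NT libraries, as they did for 32.7% of all genes. The log2 fold change was -0.74 (SE 0.244, adjusted p = 0.0509 in edgeR), which narrowly missed the threshold of 0.05. DESeq2 called SDHA lower at an adjusted p of at most 0.05. With the length correction in edgeR 0 of the 4 rose or fell in NT cells (median 0.2), beside 16.6% and 20.7% of all genes.

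**Figure D3:**
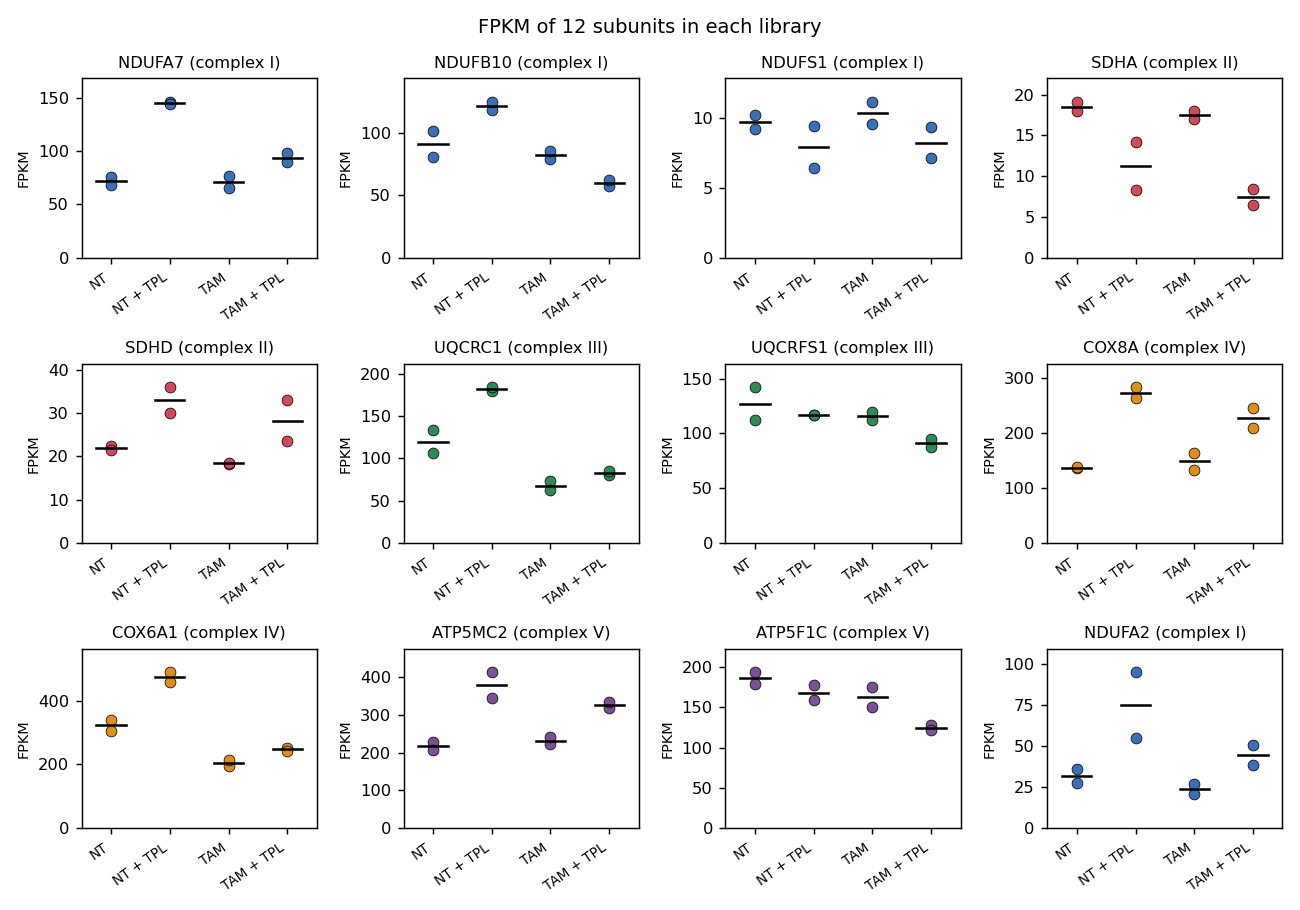
FPKM (vertical axis, from 0) of 12 subunits in the 4 groups, with a point for each of the 2 libraries and a line at their mean. SDHA is lower in both TPL groups, COX8A higher in both, and UQCRC1 and COX6A1 lower in TAM than in NT cells at either treatment.

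In TAM cells the same treatment moved few subunits past the test. A total of 1 member rose and 3 fell at an adjusted p of at most 0.05 (edgeR), where 14.3% of all genes tested rose and 18.6% fell, and the median log2 fold change was 0.16 against 0.05 over all genes. The summed FPKM share in the TAM libraries was 1.052% and 1.13%, and with TPL it was 1.133% and 1.225%. At an unadjusted p under 0.05, 7 members were higher and 4 lower (21.0% and 24.0% of all genes). By the size-limited rule edgeR called 0 members, beside 0.844% of all genes higher and 2.04% lower, and DESeq2 called 1, SDHA. Both TAM + TPL libraries lay above both TAM libraries for 41 members and below them for 9, where 40.0% and 34.7% of all genes did so.

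COX8A was the member that rose, from 132.56 and 164.39 to 209.84 and 245.26 FPKM (log2 fold change 0.57, SE 0.161, adjusted p = 0.0348). SDHA fell from 17.05 and 18.05 to 6.48 and 8.46 FPKM, a 2.39-fold decrease (log2 fold change -1.26, SE 0.248, adjusted p = 0.0098), and its groups lay far apart. NDUFB10, an accessory subunit of the membrane arm, fell from 79.55 and 85.4 to 57.78 and 62.04 FPKM (-0.51, SE 0.158, adjusted p = 0.046). ATP5F1C fell from 150.56 and 175.56 to 127.63 and 121.51 FPKM (-0.44, SE 0.134, adjusted p = 0.044).

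Among members that missed the test, NDUFA2 had the largest estimate (20.8 and 27.1 against 38.43 and 50.42 FPKM, log2 fold change 0.84, adjusted p = 0.0833), followed by SDHD (18.27 and 18.52 against 23.52 and 32.94 FPKM, 0.58, adjusted p = 0.0652). ATP5F1D, subunit delta of the rotor, had 201.44 and 202.57 against 184.6 and 162.78 FPKM (-0.44, adjusted p = 0.122). The core subunits NDUFS1, NDUFS3, NDUFS8 and NDUFV2 had values of -0.38 to -0.19, and NDUFS7 and NDUFV1 had 0.48 and 0.32, all short of the test. UQCRFS1 had -0.40 (adjusted p = 0.0855) and CYC1 -0.09. With the length correction, 0 members rose and 10 fell in TAM cells (median -0.09), SDHA, NDUFB10 and ATP5F1C among them. In that fit 15.0% of all genes rose and 20.4% fell. The rise of COX8A did not pass the test when any 1 of the NT, TAM or TAM + TPL libraries was left out, and more members rose without either NT + TPL library. Fewer members fell without any 1 TAM or TAM + TPL library, while the SDHA estimate lay between -1.45 and -1.08 in all 8 of these fits.

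**Figure D4:**
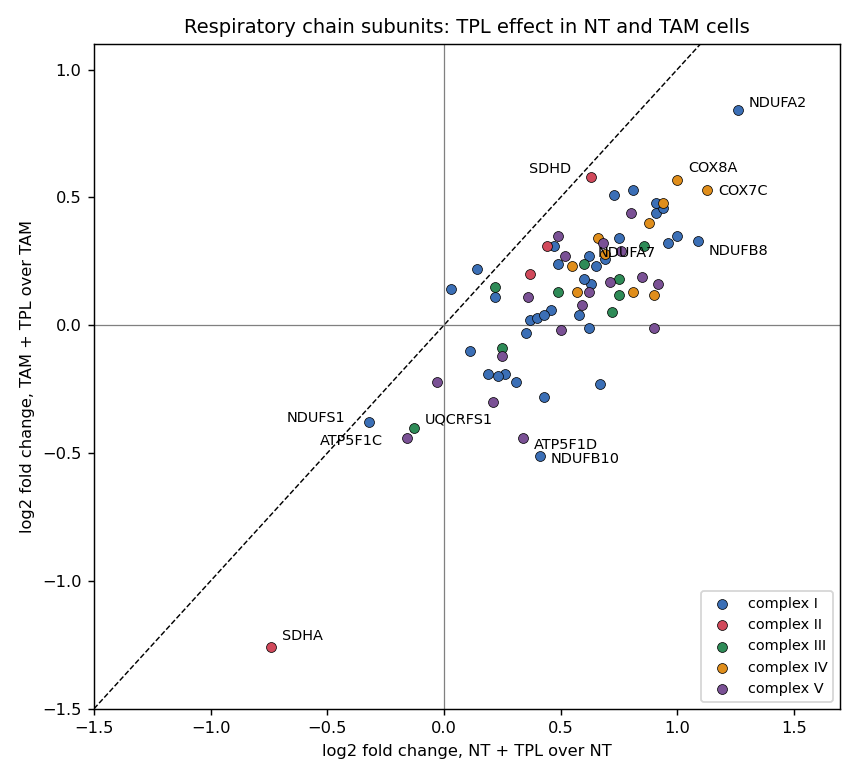
Log2 fold change with TPL in NT cells (horizontal axis) and TAM cells (vertical axis) for the 77 subunits, coloured by complex, with the line of equal change dashed. Of the 77 points, 75 lie below the line, 56 are above 0 on both axes and 5 are below 0 on both, with SDHA at -0.74 and -1.26.

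The estimate was larger in NT than in TAM cells for 75 of 77 members (97.4%), where 51.2% of all genes tested had it so, and the 2 exceptions were NDUFA12 and NDUFA8. The test of the difference between the TPL effects passed for 0 members in edgeR, with 0.0885% of all genes higher and 0.0767% lower. At an unadjusted p under 0.05, 0 members were higher and 4 lower (5.03% and 5.59% of all genes). The median difference (TAM effect minus NT effect) was -0.42, and it was -0.02 over all genes. NDUFB10 had the largest, at -0.92 (SE 0.222, adjusted p = 0.229), since its FPKM was higher with TPL in NT cells (101.9 and 80.93 to 118.69 and 124.92) and lower in TAM cells. DESeq2 called that member alone, where it called 1.6% of all genes higher and 1.39% lower. NDUFB6 (-0.90) and ATP5MGL (-0.90) followed with wider errors (SE 0.421 and 0.949). In genes under 1000 bases the median difference was -0.35 over all genes and -0.45 over members. Between 1000 and 2000 bases it was -0.20 and -0.28, and at 2000 bases or more it was 0.06 and -0.28. With the length correction the medians of complexes I to V were -0.19, -0.04, -0.21, -0.2 and -0.24, and that of all genes was -0.03.

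Few subunits differed between TAM and NT cells without TPL, a comparison in which tamoxifen and transformation cannot be told apart. In DMSO, 0 members were higher in TAM than in NT cells and 2 lower at an adjusted p of at most 0.05 (edgeR), where 3.46% of all genes were higher and 3.39% lower, and the median was -0.08. UQCRC1 was at 133.11 and 106.22 FPKM in NT and 73.18 and 62.47 in TAM (log2 fold change -0.80, SE 0.158, adjusted p = 0.0291). COX6A1, an accessory subunit of complex IV, was at 340.24 and 305.78 in NT and 194.21 and 213.87 in TAM (-0.65, SE 0.134, adjusted p = 0.0356). Neither call held when any 1 of the NT, TAM or TAM + TPL libraries was left out. The estimates then lay between -0.96 and -0.63 for UQCRC1 and between -0.72 and -0.57 for COX6A1. COX6C had -0.48 without passing the test, and NDUFB6 and NDUFB8 were among the largest positive values at 0.44 and 0.43, also short of it. By the size-limited rule edgeR called 0 members and DESeq2 called 0, beside 0.378% of all genes higher and 0.277% lower, with 2 members higher and 4 lower at an unadjusted p under 0.05 (9.51% and 10.4% of all genes).

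With TPL present, 6 members were lower in TAM than in NT cells and 0 higher (4.21% and 2.83% of all genes), and the median was -0.48 against -0.02 over all genes. DESeq2 called 24 lower by the same threshold, where it called 7.33% of all genes lower. With the length correction in edgeR the medians of complexes I to V were -0.2, 0.1, -0.38, -0.4 and -0.24, and that of all genes was 0.0. These groups share the TPL libraries with the comparisons above. UQCRC1 was at 179.49 and 184.4 FPKM in NT + TPL and 80.64 and 85.08 in TAM + TPL (log2 fold change -1.16, SE 0.159, adjusted p = 0.00748). COX6A1 was at 459.87 and 489.92 against 252.09 and 243.33 (-0.97, SE 0.135, adjusted p = 0.0079), and COX6C, the least abundant complex IV member, at 67.7 and 83.56 against 31.52 and 37.34 (-1.17, SE 0.246, adjusted p = 0.0365). Among complex I members NDUFB10 (-1.05, SE 0.158, adjusted p = 0.0108), NDUFB7 (131.32 and 150.98 against 75.61 and 70.03 FPKM, -0.98, adjusted p = 0.0184) and NDUFA7 (-0.65, adjusted p = 0.0424) were lower. In total 52 members had both TAM + TPL libraries below both NT + TPL libraries, where 23.8% of all genes lay below and 23.8% above, and SDHB, with the largest positive values together with SDHC (0.20 and 0.22) and NDUFS1 (0.05), was the 1 member with both above. The 6 calls did not hold without TAM + TPL replicate 1 or 2. More members were lower without NT + TPL replicate 1 and fewer without NT + TPL replicate 2. By the size-limited rule 0 members were called by edgeR or DESeq2, beside 0.36% of all genes higher and 0.236% lower, while 35 members were lower and 0 higher at an unadjusted p under 0.05 (12.2% and 9.12% of all genes).

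The counts in NT cells moved with the scaling. With equal GAPDH counts across libraries the median of all genes moved from 0.09 to -0.26 and that of the members from 0.60 to 0.25. In that fit 1 member was higher and 2 lower, beside 8.01% and 25.8% of all genes. With upper-quartile factors the median of all genes moved to 0.31, and 52 members were higher (median 0.82), beside 24.1% of all genes.

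Genes of related functions were set beside the members with earlier results known, and their counts are descriptions. Of 49 assembly factors, which build the complexes without staying in them, 6 rose and 12 fell with TPL in NT cells (median 0.12), and 4 rose and 11 fell in TAM cells (median -0.18), beside the 17.2% and 19.8% of all genes that rose and fell in NT cells and the 14.3% and 18.6% in TAM cells. PET117, a complex IV assembly factor, went from 3.77 and 3.58 to 0.2 and 0.22 FPKM in NT cells (-3.97 on the log2 scale, SE 0.48, adjusted p = 0.00142), and SCO2, a copper chaperone of complex IV, fell in both states (-1.5 and -1.55, adjusted p = 0.00322 and 0.00325). SURF1 and UQCC2, factors for complexes IV and III, rose in NT cells by 1.43 and 1.26 on the log2 scale (adjusted p = 0.0264 and 0.0176).

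Most of the nuclear regulators of mitochondrial genes were lower with TPL. Of 12 tested, 8 fell and 0 rose in each state (19.8% and 18.6% of all genes fell in NT and TAM cells), with medians of -1.05 in NT and -0.80 in TAM cells. POLRMT, the mitochondrial RNA polymerase, went from 26.64 and 26.65 to 4.96 and 4.54 FPKM in NT cells (-2.49 on the log2 scale, SE 0.191, adjusted p = 0.000348) and from 31.2 and 22.68 to 7.93 and 6.83 in TAM cells (-1.92, adjusted p = 0.000763). The coactivator PPARGC1B fell by 5.43 and 5.02 on the log2 scale and PPRC1, a relative of it, by 1.8 and 1.4. NRF1 had -0.23 and 0.05 and GABPA -0.40 and -0.27, all short of the test, while YY1 fell in both states (-0.80 and -0.58, adjusted p = 0.0114 and 0.0369).

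Of 13 citrate cycle genes 2 rose and 1 fell in NT cells (median 0.18), beside 17.2% and 19.8% of all genes. In TAM cells 0 rose and 3 fell (median -0.18), beside 14.3% and 18.6% of all genes. IDH3A was lower in both states (-1.08 and -0.81, adjusted p = 0.00137 and 0.00417). Among subunits or partners that the symbol rule leaves out, 3 of 7 tested rose and 0 fell in NT cells (median 0.76), beside the same 17.2% and 19.8% of all genes. The 3 were COXFA4, COX7A2L and the ATP synthase inhibitor ATP5IF1, and COXFA4 also rose in TAM cells (log2 fold change 1.21 and 0.74, adjusted p = 0.00605 and 0.0376).

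RNAPII was listed at nearly every subunit promoter, with or without TPL. The peak lists (hg19) give the peaks that contain a TSS, with no height and no replicates, so that only presence and extent can be described, and they were not placed on the promoter stretches above, which are on another build. A main TSS lay inside a listed peak for 76 of 77 members in the NT list and 76 in the NT + TPL list. The TAM list covered 71 and the TAM + TPL list 75. Over 16583 protein-coding genes the shares were 55.0%, 44.1%, 48.5% and 43.1%. Among the 5051 genes with a mean of at least 10 FPKM they were 89.6%, 76.6%, 83.5% and 77.6%, where 74, 74, 69 and 73 of the 74 members at that level had a peak. The labels name 1 list for both samples of a condition, while the peak names in each list carry the tag of replicate 1, so a list may rest on 1 sample. The TAM list carries a peak-name tag with another cutoff than the other 3 lists, so values set beside it describe lists made with different cutoffs.

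Of the members with a peak in NT, 0 lost it with TPL, and of those with a peak in TAM, 1 did, NDUFB11. Over protein-coding genes with a mean of at least 10 FPKM, 15.9% and 12.4% did. The 5 members listed with TPL but not without it in TAM cells were ATP5PB, COX7B, NDUFA7, NDUFC1 and UQCRC2, and ATP5MGL had no peak in any list. Of the 5051 genes with a mean of at least 10 FPKM, 225 were listed in that way. With a main TSS within 1 kb of a peak as the rule, the TAM list covered 74 members and the TAM + TPL list 76. Some of these losses and gains therefore depend on where a peak edge fell. Between NT and NT + TPL the members' median peak width was 736.5 and 771 bases, and 38 of 76 peaks were narrower with TPL, where 63.5% of peaks were narrower over genes with a mean of at least 10 FPKM. Downstream of the TSS the members' peaks reached a median of 387 and 379.5 bases.

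SDHA, which fell with TPL in TAM cells, and COX8A, which rose in both states, kept their peak in all 4 lists. On hg19 the SDHA peak was at chr5:218054-218637 in NT and chr5:218088-218680 in NT + TPL, across the main TSS at position 218435. The COX8A peak was at chr11:63741982-63742632 in NT and chr11:63741467-63742552 in NT + TPL, widening from 651 to 1086 bases around the TSS at 63742092.

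**Figure D5:**
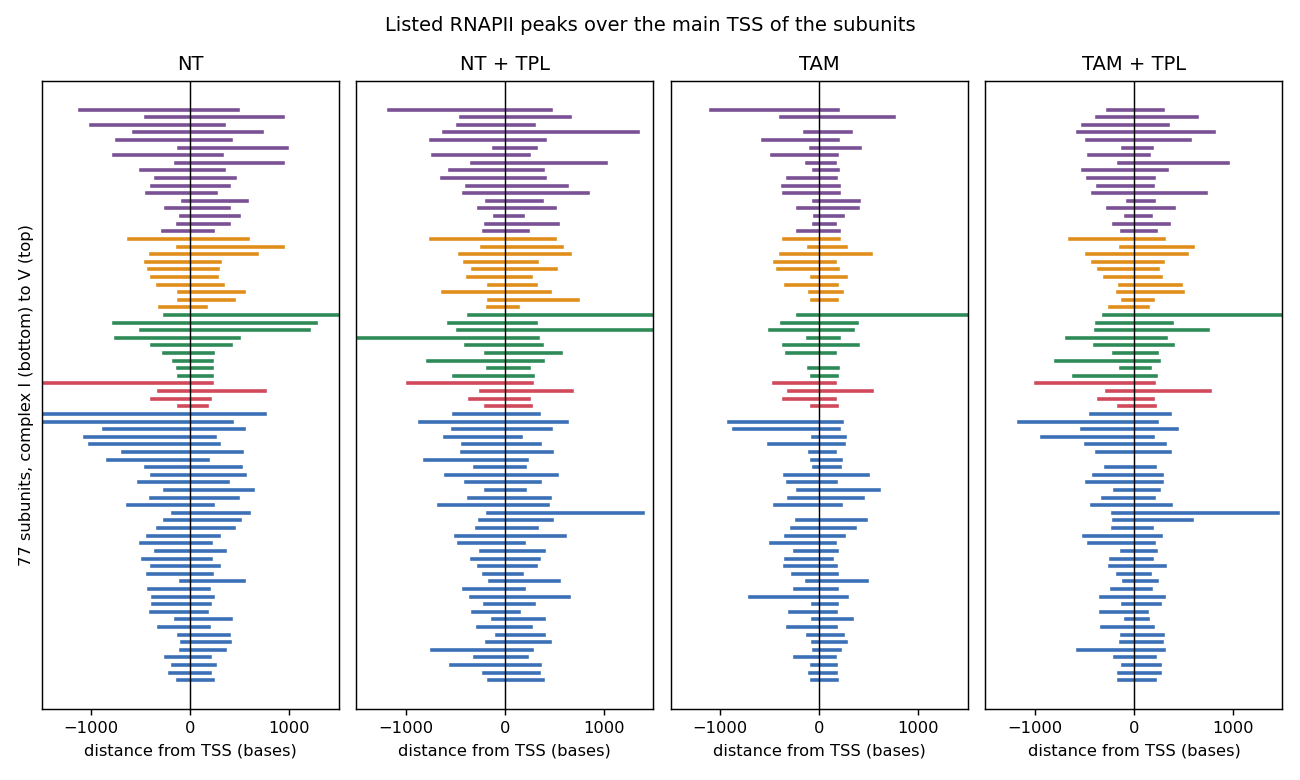
Extent of the listed RNAPII peak over the main TSS of each of the 77 subunits, 1 line a gene, coloured by complex as in the other plots, with distance from the TSS in bases on the horizontal axis (upstream negative) and a panel for each list. Lines that reach past the axis are cut; peaks cover the TSS of 76, 76, 71 and 75 subunits.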

How the data were processed

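Members, lists and tests were chosen with earlier results of these data known. From poly-A RNA the authors made expected counts with Bowtie2 and RSEM, deposited without normalization; the FPKM values, deposited beside them, are scaled by the authors per kilobase of effective length and for mapped reads. The RNAPII peak lists were deposited by the authors as intervals called with MACS (version 1.4.2 in the submitters' processing notes) on hg19; the study's methods name SOAP2 as aligner and those notes list BWA. Genes not listed in a library were taken as 0. Of 23604 listed genes, 21077 took their symbol from the gene ID, 2384 from a RefSeq accession, and 143 had none; 12 accession rows of members were kept apart from the gene ID rows.

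Expected counts were rounded and fitted in R 4.3.3 with the quasi-likelihood test of edgeR 4.0.16 (TMM scaling, filterByExpr by group) in 1 model of 4 groups, with 16948 genes tested and Benjamini-Hochberg adjustment. The size-limited rule took a log2 fold change beyond 1.2 either way with an adjusted p no higher than 0.001. The labels number replicates without saying what a number shares, and replicate 1 minus replicate 2 differences correlated between groups by -0.135 to 0.05 over genes, so the fit had no replicate block. The study calls the 2 libraries of a group biological replicates. Alternatives were DESeq2 1.42.0, limma on log2(FPKM + 1) and log2(FPKM + 0.1), other scalings and filters, a length correction, a replicate block and leaving out each library. Scripts were tested on simulated data. Depth was 7461309 to 8349448 expected counts a library, which limits ATP5MGL most.

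Values in every library are given for members called by the size-limited rule (there were 0). Other named members are the 3 largest and 3 smallest log2 fold changes in each comparison among members with a mean of at least 1 FPKM, the core or catalytic subunits, and the highest and lowest member of each complex; members past an adjusted p of 0.05 in the TAM comparisons, and those with the smallest adjusted p in NT cells, were added after their values were seen. The values of 1 member are not reported here. TSSs were those of the Ensembl canonical transcript in GENCODE release 44 on build 37 (the APPRIS principal transcript for 1 member). Promoters came from a RefSeq table on GRCh38.p14.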

Additional observations from a re-analysis of the deposited data

Results flagged for a closer look

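Separate rows of member transcripts were left out of the comparisons, and 5 values among them had both TPL libraries above both DMSO libraries. For COX4I1, 1 such row held more than its gene ID row: 73.92 and 71.89 FPKM in NT against 134.68 and 183.00 in NT + TPL (log2 fold change 1.12, SE 0.187, adjusted p = 0.00473 in edgeR), and 73.48 and 73.93 in TAM against 106.41 and 98.82 in TAM + TPL (0.43, adjusted p = 0.119). With rows of a gene summed, a choice made after seeing the data, COX4I1 rose in NT cells (1.0, SE 0.22, adjusted p = 0.00342 in edgeR) and had 0.30 in TAM cells (adjusted p = 0.293). The other 11 rows reached at most 4.74 FPKM, and 0 of the 7 tested passed in either state, with the lowest adjusted p at 0.222 in NT and 0.26 in TAM cells. Of these 7, 5 estimates were above 0 and 2 below in NT cells, and 3 above and 4 below in TAM cells. The other 3 of the 5 values included a second COX4I1 row in NT cells (0.98, SE 0.72, adjusted p = 0.317). They also held an NDUFS4 row in NT cells (1.04, SE 1.66, adjusted p = 0.649) and another NDUFS4 row in TAM cells (1.54, SE 1.56, adjusted p = 0.472). The rule did not seek rows that were lower with TPL. An ATP5PF row was lower in TAM cells, at 1.19 and 0.91 FPKM against 0.55 and 0.7 with TPL (log2 fold change -0.86). The summed NDUFS4 rows gave 0.76 in NT cells (adjusted p = 0.0206 in edgeR).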

How the results depend on the processing

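In NT cells 36 members rose with TPL. This count was 8 with the length correction, 7 with a replicate block and length correction, 6 with only the groups compared, 1 with GAPDH scaling, 25 with the replicate block alone, and 2 to 47 with 1 library left out. The 0 members that fell became 3 with either length correction, 2 with GAPDH scaling, 1 with DESeq2, with accession rows summed, with at least 10 counts in every library, with no filter and with the crossed block, and 0 to 1 with 1 library left out. The numbers of NT and NT + TPL correlated at -0.135, and crossing them, chosen after seeing the data, gave 32 higher and 1 lower. Of all genes, 16.2% were higher and 19.6% lower in that fit. The median of 0.60 became 0.11 with either length correction and 0.25 with GAPDH scaling, and 0.40 to 0.78 with 1 library left out. DESeq2 made 1 size-limited call in each cell state. At an adjusted p of at most 0.05 DESeq2 called 48 members higher in NT cells, beside 20.9% of all genes. By that threshold limma on log2(FPKM + 1) called 40 higher, beside 19.4% of all genes. Of all genes, 16.6% rose in NT cells with the length correction, 14.1% with it and the replicate block, and 14.0% with the block alone. The share was 11.2% with only the groups compared and 8.01% with GAPDH scaling. Of all genes, 20.7% fell with the length correction, 19.1% with it and the replicate block, and 25.8% with GAPDH scaling. The share that fell was 22.1% with DESeq2, 24.1% with accession rows summed, 25.3% with at least 10 counts and 13.9% with no filter.

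In TAM cells the 1 member that rose became 7 with DESeq2 and with at least 10 counts in every library, 3 with accession rows summed and with library size only, 5 with either limma fit, 9 with only the groups compared, 15 with upper-quartile factors, 0 with either length correction and GAPDH scaling, and 0 to 7 with 1 library left out. The 3 that fell became 10 with the length correction, 12 with it and the replicate block, 5 with only the groups compared, 1 with DESeq2 size factors, at least 10 counts, library size only, upper-quartile factors or the replicate block, and 0 to 3 with 1 library left out. The median of 0.16 became -0.09 with either length correction and 0.40 with upper-quartile factors. Of all genes, 18.1% rose in TAM cells with DESeq2, 19.4% with at least 10 counts and 21.3% with upper-quartile factors. With only the groups compared 20.5% rose and 23.6% fell. With the length correction 20.4% fell, and 18.8% fell with it and the replicate block. With accession rows summed 20.4% rose, with library size only 15.7% rose and 17.0% fell, and with GAPDH scaling 9.59% rose. The limma fits had 17.4% and 17.0% higher. The shares that fell were 17.9% with DESeq2 size factors, 23.7% with at least 10 counts, 13.6% with upper-quartile factors and 16.4% with the replicate block.

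For TAM against NT cells with DMSO, the 2 lower members became 0 with only the groups compared and with the replicate block, 6 with GAPDH scaling, 1 with upper-quartile factors and 0 to 2 with 1 library left out. DESeq2 called 1 higher, beside 6.08% of all genes. GAPDH scaling moved the members' median from -0.08 to -0.54 and that of all genes from -0.03 to -0.5. In that fit 9.95% of all genes were lower. The share lower was 4.47% with only the groups compared, 2.45% with the replicate block and 3.07% with upper-quartile factors. With TPL, the 6 lower members became 24 with DESeq2, 13 with accession rows summed and with at least 10 counts, 2 with only the groups compared, 12 with GAPDH scaling and 0 to 11 with 1 library left out; the replicate block gave 4. DESeq2 called 1 member for the difference of the TPL effects, NDUFB10. Of all genes, DESeq2 called 7.33% lower in TAM than in NT cells with TPL, and 1.39% lower for the difference. With TPL the share of all genes lower was 7.06% with accession rows summed and 7.43% with at least 10 counts. It was 1.75% with only the groups compared, 5.67% with GAPDH scaling and 2.9% with the replicate block.

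Of 49 single values, COX6A1, COX7B and ATP5MK in NT cells turned to -0.11, -0.09 and -0.05 with the length correction, with and without the block; in the settings without a length correction 472 of 588 kept direction and side of the threshold and 111 lost the call, and with 1 library left out 189 of 392 did so and 202 lost it, with 0 reversed. The cause of these changes was not tested, and only 2 libraries a group limit what any fit can call. Counts of occupied TSSs moved by less than 1.5 times under both other TSS rules.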
